A study of Mus musculus with 2 samples.

Results

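The cells described here are lymphatic-like endothelial cells from the liver of 1 mouse homozygous for the sphinx allele of Gimap5 (sph/sph). They were chosen by their own transcripts. Barcodes had to carry at least 5 unique molecular identifiers (UMIs, each standing for 1 captured transcript) of Lyve1 and at least 2 of Mmrn1. A barcode first had to show 500 genes and 1000 UMIs or more, with no more than 15% of its UMIs mitochondrial. Of 13094 barcodes of the sph/sph library that passed the filter, 1099 met the rule, 8.39% (95% exact Clopper-Pearson interval 7.92 to 8.88). The library held 16386 deposited barcodes, and the whole series 29522. Lyve1 and Mmrn1 therefore chose the cells, and their levels are no finding.

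The study set liver endothelium of a sph/sph mouse beside that of a sph/+ mouse. Both were adult and of C57BL/6 background, and each carried the sphinx missense allele, so no wild-type animal was included. Live cells that stained for CD31 (Pecam1, an endothelial adhesion molecule) and not for CD45 (Ptprc, the leukocyte phosphatase) were sorted, and each mouse gave 1 droplet library. With 1 mouse per genotype, library and genotype cannot be told apart, and differences carry no p-value. All intervals cover counting error only.

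Lymphatic vessels of the liver run mainly in the portal tracts and drain fluid that leaves the sinusoids. Their endothelium is set apart from blood endothelium by the homeobox factor Prox1, which is switched on in venous endothelium with the help of Sox18 and Nr2f2, and it grows in response to VEGF-C through the receptor Flt4. Lyve1, a hyaluronan receptor, is not lymphatic alone, since liver sinusoidal endothelial cells (LSECs) carry it too. Mmrn1, a multimerin of platelets and endothelium, marks lymphatic endothelium and is scarce in LSECs.

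Promoter windows are shown for 3 genes the description turns on: Prox1 as the regulator, Mmrn1 as a gate gene and Ccl21a as a gene that split the cells. Each is the 250 bases before a RefSeq start site in GRCm38.p6, read 5′ to 3′ on the gene's strand. Capitals mark the letters ACAAT or their reverse complement ATTGT, which SOX factors can bind. The Prox1 window is chr1:190170828-190171077 on the minus strand, the Mmrn1 window chr6:60944067-60944316 on the plus strand, and the Ccl21a window chr4:42773992-42774241 on the minus strand.
Prox1: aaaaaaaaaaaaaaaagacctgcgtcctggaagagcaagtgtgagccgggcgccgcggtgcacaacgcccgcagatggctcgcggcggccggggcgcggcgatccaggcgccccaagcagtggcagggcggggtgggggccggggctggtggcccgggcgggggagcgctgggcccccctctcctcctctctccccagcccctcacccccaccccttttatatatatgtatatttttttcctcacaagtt
Mmrn1: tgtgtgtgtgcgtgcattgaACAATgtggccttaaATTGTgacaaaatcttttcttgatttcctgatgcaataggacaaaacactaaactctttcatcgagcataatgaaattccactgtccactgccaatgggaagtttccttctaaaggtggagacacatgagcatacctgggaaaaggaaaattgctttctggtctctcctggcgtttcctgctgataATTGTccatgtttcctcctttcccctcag
Ccl21a: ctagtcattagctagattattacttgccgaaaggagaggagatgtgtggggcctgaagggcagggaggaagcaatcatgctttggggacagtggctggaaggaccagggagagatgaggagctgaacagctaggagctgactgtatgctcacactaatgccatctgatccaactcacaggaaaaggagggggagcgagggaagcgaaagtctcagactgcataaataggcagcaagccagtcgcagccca
The Mmrn1 window held 3 matches and the Fgl2 window 2, while the letters were not found in the windows of Prox1 (both starts), Reln or Ccl21a. On either strand, 27.7% of 32851 promoter windows of this length held them. The half-site AGGTCA or TGACCT, which nuclear receptors such as Nr2f2 can bind, was in 14.02% of all windows and in none of these 6. No overlap between the 2 motifs arose, and a match of letters shows no binding. For Prox1 and Reln the GENCODE gene models start near these RefSeq starts, but the GENCODE Mmrn1 gene spans 60924976 to 60989378 on chromosome 6, so its window lies inside that gene.

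The gate separated a population that was nearly missing from the sph/+ library. There, 8 of 12304 filtered barcodes met the same rule, 0.0650% (0.0281 to 0.128). Lyve1 alone was not rarer there: 1220 sph/sph and 2001 sph/+ barcodes carried at least 5 Lyve1 UMIs. Of these Lyve1-rich barcodes, 90.1% in sph/sph (88.3 to 91.7) and 0.400% in sph/+ (0.173 to 0.786) also carried at least 2 Mmrn1 UMIs. The Lyve1-rich sph/+ barcodes held the LSEC genes Clec4g, a C-type lectin, at 3868 CPM and Stab2, a hyaluronan scavenger receptor, at 1425 CPM (CPM, UMIs summed over the cells and scaled to a common total). Prox1 in them was at 9.46 CPM. Lyve1 thus marked mainly different cells in each library: Prox1-positive cells in sph/sph, and in sph/+ cells that as a sum were rich in Stab2 and Clec4g.

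**Figure D1:**
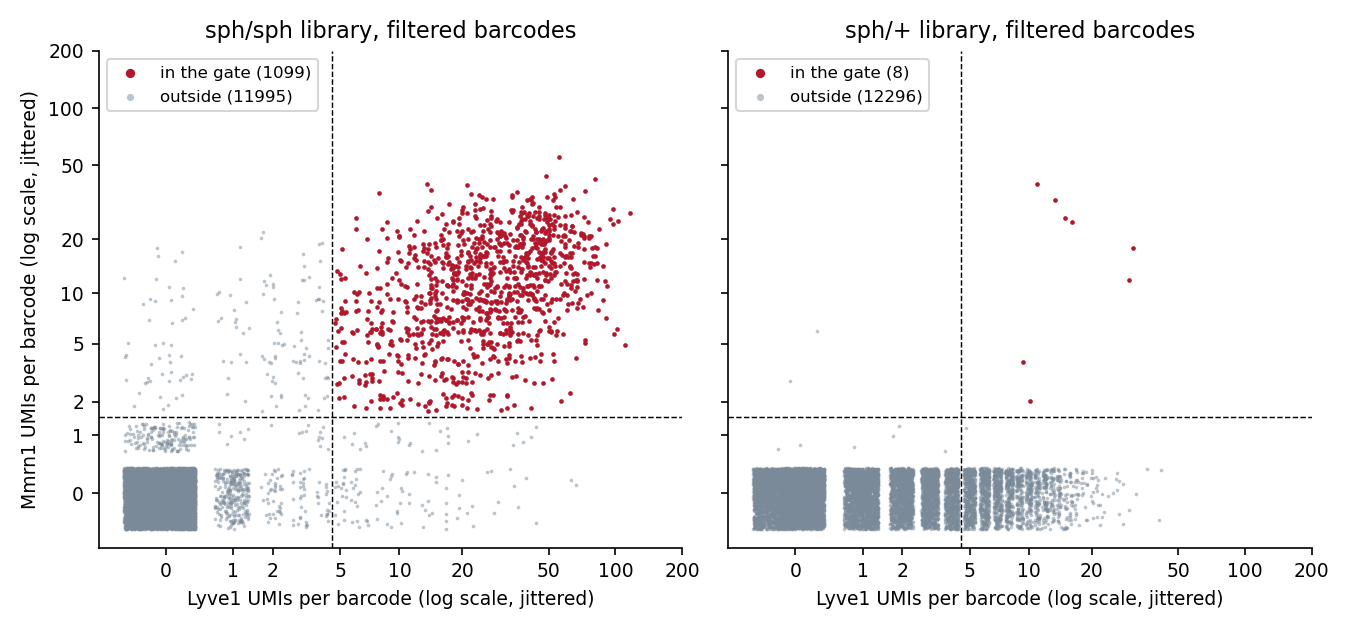
Lyve1 UMIs (x axis) and Mmrn1 UMIs (y axis) of each filtered barcode, on log axes with jitter, in the sph/sph library (left) and the sph/+ library (right); dashed lines are the gate. The upper right area holds 1099 sph/sph and 8 sph/+ barcodes, while the sph/+ library has a long row of barcodes with Lyve1 and no Mmrn1.

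Reading the gate at equal depth left this pattern in place. Each barcode was thinned to 2000 UMIs, shallower barcodes were left out, and the gate was lowered to 2 Lyve1 UMIs and 1 Mmrn1 UMI. It then took 887 of 12019 sph/sph barcodes, 7.38% (6.92 to 7.86), and 7 of 11865 sph/+ barcodes, 0.0590% (0.0237 to 0.122). The libraries shared 22 barcode sequences among filtered barcodes, and 2 of them were in the sph/sph gate.

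Within the sph/sph library, the gated cells were set against 11230 Lyve1-negative endothelial barcodes, which had at least 1 UMI of Pecam1 or Cdh5 and none of Lyve1. The gated cells were the richer in RNA, with a median of 10520 UMIs and 3418 genes, against 3763 UMIs and 1820 genes in Lyve1-negative barcodes. The middle 90% of gated cells had 4158 to 18177 UMIs, and that of Lyve1-negative barcodes 1757 to 8290. Mitochondrial UMIs were 4.50% and 5.66% at the median. A gate on raw UMIs favours deep barcodes, and how much of the depth difference it made was not tested. Scrublet's doublet median score was 0.112 in gated cells and 0.129 in Lyve1-negative barcodes. The barcodes with the highest scores were 8.64% of gated cells and 11.0% of Lyve1-negative barcodes. Of the gated cells, 4 had no UMI of Pecam1 or Cdh5.

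**Figure D2:**
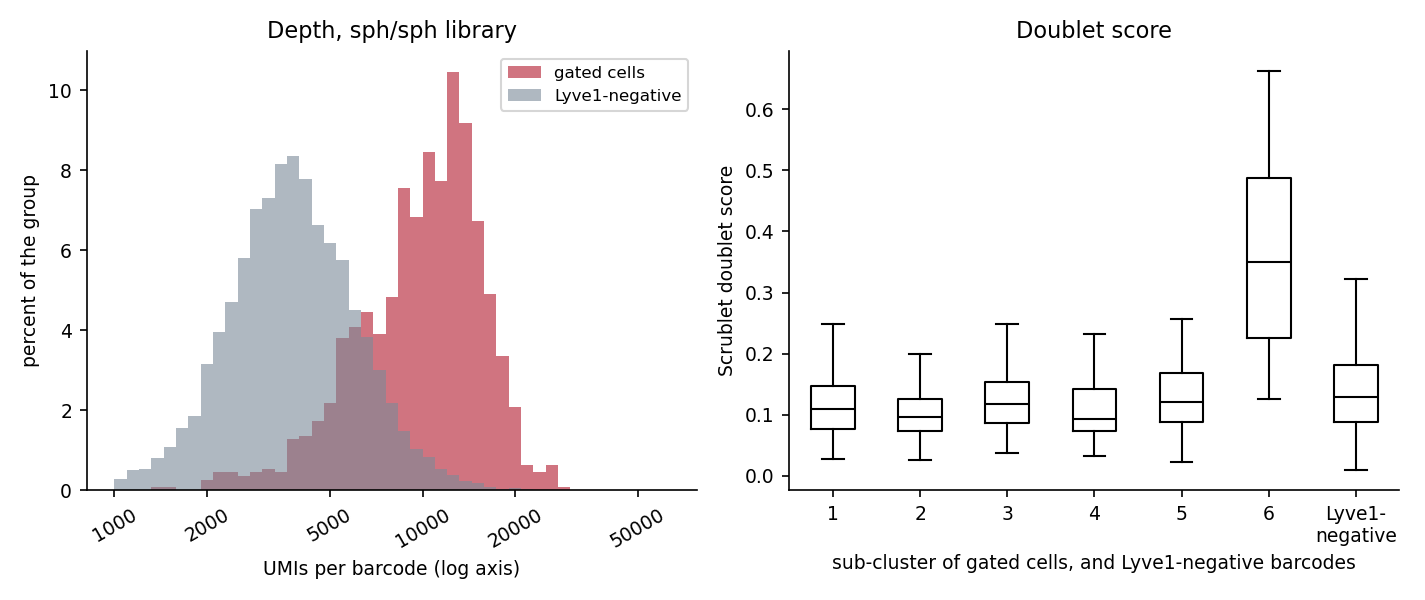
Left, UMIs per barcode on a log axis for gated cells and Lyve1-negative barcodes of the sph/sph library, as percent of each group. Right, Scrublet doublet score by sub-cluster of the gated cells, with Lyve1-negative barcodes last (box, quartiles; line, median; whiskers, to 1.5 times the interquartile range); sub-cluster 6 stands above the others at a median of 0.349.

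Prox1, the regulator of lymphatic fate, was carried by nearly every gated cell. It lies on chromosome 1 from 190118035 to 190170714 (GRCm38, minus strand). Gated cells held 1 to 12 Prox1 UMIs from the 5th to the 95th percentile, with a median of 4. Its level was 459 CPM (447 to 471) in gated cells and 7.09 CPM (6.36 to 7.89) in Lyve1-negative barcodes, 64.7-fold higher (57.9 to 72.4), a log2 ratio of 5.83 with 1 CPM added to both. Against 775 Lyve1-negative barcodes matched in depth the log2 ratio was 4.31. Filtered barcodes without Lyve1 included 49 with at least 2 Mmrn1 UMIs, at a median of 7952 UMIs and with Prox1 at 510.3 CPM. Their part in the lower ratio, and in the other depth-matched ratios given below, was not tested. A Prox1 UMI was present in 95.1% of gated cells (93.6 to 96.3), against 1.09% of Lyve1-negative barcodes (0.903 to 1.30). At 2000 UMIs per barcode these shares were 56.8% (53.8 to 59.7) in gated cells and 0.660% (0.513 to 0.836) in Lyve1-negative barcodes. The 2 groups thus stayed far apart at equal depth, although the share itself moved with depth.

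The other markers given for these cells were as far apart, but not all were in every cell. Reln, the secreted glycoprotein reelin that lymphatic endothelium makes, was at 299.8 CPM in gated cells and 1.78 CPM in Lyve1-negative barcodes, and 84.3% of gated cells had a UMI. Fgl2, a fibrinogen-like protein, was at 1421 CPM against 12.8 CPM, in 98.5% and 2.09% of barcodes. H19, an imprinted long noncoding RNA best known from fetal tissues, was at 1269.98 CPM against 17.2 CPM. It was uneven: 70.5% of gated cells had an H19 UMI, with a median of 5 and a 95th percentile of 59.2 UMIs. Ccl21a, a chemokine that draws dendritic cells and T cells into lymphatics, was at 906 CPM against 6.28 CPM, a 144-fold difference (129 to 163). Yet it was found in 25.5% of gated cells (22.9 to 28.2), with a median of 0 UMIs and a maximum of 288. The mouse genome holds near-identical Ccl21 genes, and the counts could be split among them. Of the other copies in the annotation, Gm21541 had 80 UMIs in gated cells and Ccl21c had 1, beside 10702 for the Ccl21a entry.

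Over 8 lymphatic genes that the gate did not read (Prox1, Reln, Fgl2, Thy1, Flt4, Nrp2, Ccl21a and Pdpn), 99.6% of gated cells had a UMI of at least 3. The share was 1.71% in Lyve1-negative barcodes. At 2000 UMIs per barcode it was 82.3% in gated cells and 0.592% in Lyve1-negative barcodes. All 8 were detected together in 79 gated cells and 1 Lyve1-negative barcode. Most gated cells thus carried several of these genes one by one, but Ccl21a and Pdpn were in 25.5% and 15.5% of them. Flt4 and Nrp2 were also in 32.4% and 66.3% of Lyve1-negative barcodes. Since Prox1, Reln, Fgl2 and Ccl21a were given as markers of these cells, the count describes them and does not test the name.

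Log2 ratios below are gated cells over Lyve1-negative barcodes after 1 CPM was added to both, and a gene was measured at 20 CPM or more in either group. Of 7299 measured genes other than Lyve1 and Mmrn1, 666 (9.12%) were at least 2-fold higher in gated cells and 992 (13.6%) at least 2-fold lower. Another 4244 differed by under 1.5-fold. Over all these genes the ratio had a median of -0.09 on the log2 scale. Past 8-fold, 167 genes were higher and 206 lower. Because the cells were chosen by their transcripts in this same library, these counts and all ratios below describe the cells and test nothing. The gene lists are read against the 9.12% and 13.6%.

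The lymphatic identity list had 23 measured members besides the gate genes. Of them, 18 passed 2-fold on the high side in gated cells and 0 on the low side, and the median log2 ratio was 3.87, or 2.92 against depth-matched barcodes. Nts, a neuropeptide precursor known in lymphatic endothelium, was the most abundant, at 4894 CPM in gated cells and 275 CPM in Lyve1-negative barcodes (4.15). Thy1, a surface glycoprotein, was at 259 against 4.08 CPM (5.68), and Tbx1, a T-box factor of lymphatic development, at 94.2 against 2.66 CPM (4.70). The venous and lymphatic factor Nr2f2 was at 459 against 69.0 CPM (2.71), and Hoxd8, a homeobox gene, at 87.8 against 9.46 CPM (3.09). Pdpn, the mucin-like protein podoplanin that is a standard lymphatic surface marker, was scarce, at 27.8 against 0.96 CPM (3.87), in 15.5% of gated cells. Sox18 was not among the higher genes, at 150 against 197 CPM (-0.39). Nrp2 (0.56), Itga9 (0.77), Ackr2 (0.21) and Piezo2 (-0.04) also lay within 2-fold, and Ackr4, a scavenging receptor for Ccl21, stayed below 20 CPM in both groups.

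**Figure D3:**
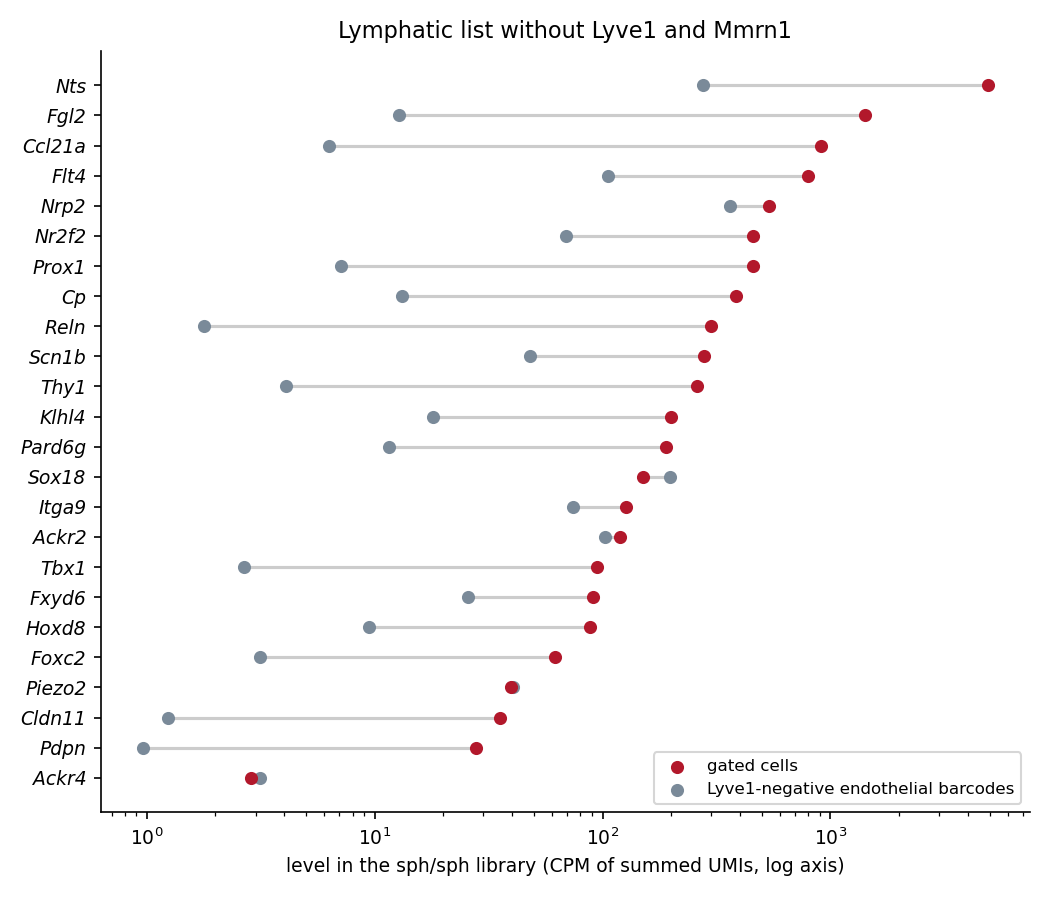
Level of each lymphatic identity gene other than Lyve1 and Mmrn1 in gated cells (red) and Lyve1-negative endothelial barcodes (grey) of the sph/sph library, in CPM of summed UMIs on a log axis. Gated cells lie to the right for 18 genes by at least 2-fold, while Sox18, Piezo2 and Ackr2 nearly overlap.

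Receptors of lymphatic growth were mixed. Flt4, the VEGF-C receptor, was at 798 CPM in gated cells and 106 CPM in Lyve1-negative barcodes (2.90). Of 14 measured members of the growth list, 3 were at least 2-fold higher and 1 lower, with a median of 0.42. The higher ones were Flt4, Ackr3, a scavenger of adrenomedullin and Cxcl12 (126 against 21.5 CPM), and Angpt2, a ligand of the Tie2 receptor that lymphatics need (1.53). Efnb2, the ephrin-B2 ligand, was lower (-1.06). The ligand gene Vegfc had 1.10 CPM in gated cells and 10.5 CPM in Lyve1-negative barcodes, below the 20 CPM line in both.

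Genes of collecting vessels and valves were also present. Of 11 measured members, 6 were at least 2-fold higher and 0 lower, with a median of 2.21. They included Foxc2, the forkhead factor of valve formation (61.7 against 3.14 CPM, 3.92), Foxp2 (65.8 against 1.67 CPM, 4.64) and Nfatc1, a calcium-regulated valve factor (117 against 24.6 CPM, 2.21). Cldn11, a tight junction claudin of lymphatic valves (4.03), Celsr1, a planar polarity cadherin (4.03), and Fn1, fibronectin (846 against 15.1 CPM, 5.71), made up the rest. The valve genes Gata2 (-0.57), Gja1 (-0.30) and Gja4 (-0.55) were within 2-fold.

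The 14 genes named for the highest ratios reached beyond the lymphatic lists. Scn3a, a voltage-gated sodium channel subunit, was at 242 CPM in gated cells and 1.15 CPM in Lyve1-negative barcodes (6.82). Gap43, a growth-cone protein (6.22), Nrcam, a neuronal cell adhesion molecule (5.88), and Vldlr, a reelin receptor (5.85), followed. Scn3a had a UMI in 63.7% of gated cells and 0.436% of Lyve1-negative barcodes. Vldlr and its ligand gene Reln were thus both detected in the gated cells, with UMIs in 53.0% and 84.3% of them. The remaining genes of this group were Ston2, an endocytic adaptor (5.49), Slc45a3 (5.47) and Adamtsl1 (5.46).

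The transcripts of sinusoidal endothelium were split. Of 14 measured LSEC genes, 7 were at least 2-fold higher in gated cells and 6 lower. The median was 0.95, but it ran from -1.85 to 1.44 over the processing alternatives and so has no stable sign. Stab1, a scavenger receptor shared by lymphatic and sinusoidal endothelium, was at 1424 CPM in gated cells and 353 CPM in Lyve1-negative barcodes (2.01). Mrc1, the mannose receptor (2.41), Maf, a bZIP factor (1.86), F8, coagulation factor VIII (1.66), Gpr182, an atypical chemokine receptor (1.40), and Wnt2 (3.32, and 1.48 against depth-matched barcodes) were also higher. Stab2 was higher too but low in level, at 66.1 against 23.8 CPM (1.44), in 36.5% of gated cells and 13.1% of them at 2000 UMIs. In contrast Clec4g, at 5.33 against 55.6 CPM (-3.16), Bmp2, a BMP ligand (-3.03), and Gata4, the sinusoidal GATA factor (-1.86), were lower. The inhibitory Fc receptor Fcgr2b had 0.593 CPM in gated cells and 1.99 CPM in Lyve1-negative barcodes.

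Another set of sph/sph barcodes carried the sinusoidal genes. The 207 sph/sph barcodes outside the gate with at least 3 Stab2 UMIs had Stab2 at 671 CPM, which is what chose them. They also had Clec4g at 651 CPM, and Prox1 at 4.31 CPM (1.58 to 9.39) and Reln at 1.44 CPM. Gated cells, with 3 Stab2 UMIs at their 95th percentile and Prox1 in 95.1%, were left out of this set. Its low Prox1 and Reln are thus partly set by the choice. In the gated cells, Prox1 was at 459 CPM and Clec4g at 5.33 CPM.

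Capillary genes were the largest group on the low side. Of 21 measured members of the continuous capillary list, 17 were at least 2-fold lower in gated cells and 2 higher, with a median of -1.62. Aplnr, the apelin receptor (6.94 CPM in gated cells against 237 in Lyve1-negative barcodes, -4.91), and its ligand gene Apln (14.4 against 455 CPM, -4.89) had the lowest ratios of the named genes. Ly6c1 and Ly6a, surface antigens of capillaries (-4.49 and -4.43), Rgcc (-4.26) and Cd36, a fatty acid transporter (-3.43), were also lower. Plvap, the protein of fenestral and caveolar diaphragms, went the other way at 651 against 126 CPM (2.36), as did Cd200 (1.23). Sub-cluster 6 of the gated cells, 85 cells described below, held 801 of the 1018 Ly6c1 UMIs and 1187 of the 1709 Ly6a UMIs. Without it Ly6c1 was at -6.50, Sparcl1 at -6.45, Nrp1 at -6.21, Apln at -5.92, Aplnr at -5.72 and Cd36 at -4.14. Also among the 10 named for the lowest ratios were Sparcl1 (-4.65), the VEGF co-receptor Nrp1 (-4.57), Nes, nestin (-4.50), Tubb3, a tubulin (-4.60), Sprr2b (-4.53) and Fam167b (-4.60).

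Arterial and pan-endothelial genes were mostly lower. Among 12 arterial genes 7 were lower and 3 higher (median -1.05), with Gja5, an arterial connexin, at -4.07 and Sox17, an arterial SOX factor, at -3.88. Among 20 pan-endothelial genes 11 were lower and 0 higher (median -1.04). Pecam1, which the sort selected on, was at 588 CPM in gated cells and 1182 CPM in Lyve1-negative barcodes (-1.01), and Cdh5, VE-cadherin, at 494 against 1463 CPM (-1.57). Flt1, a VEGF receptor, was at 42.7 against 727 CPM (-4.06, and -5.92 without sub-cluster 6), while Tie1 (-0.02) and Egfl7 (-0.01) were level. The Lyve1-negative barcodes were required to carry Pecam1 or Cdh5, so both genes are partly set by the comparison. Of 9 venous genes, 2 were higher and 3 lower, with a median of 0.38 that changed sign over the alternatives (-0.49 to 0.56). Selp, P-selectin, was higher (2.92) and Vwf, von Willebrand factor, lower (-4.38).

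**Figure D4:**
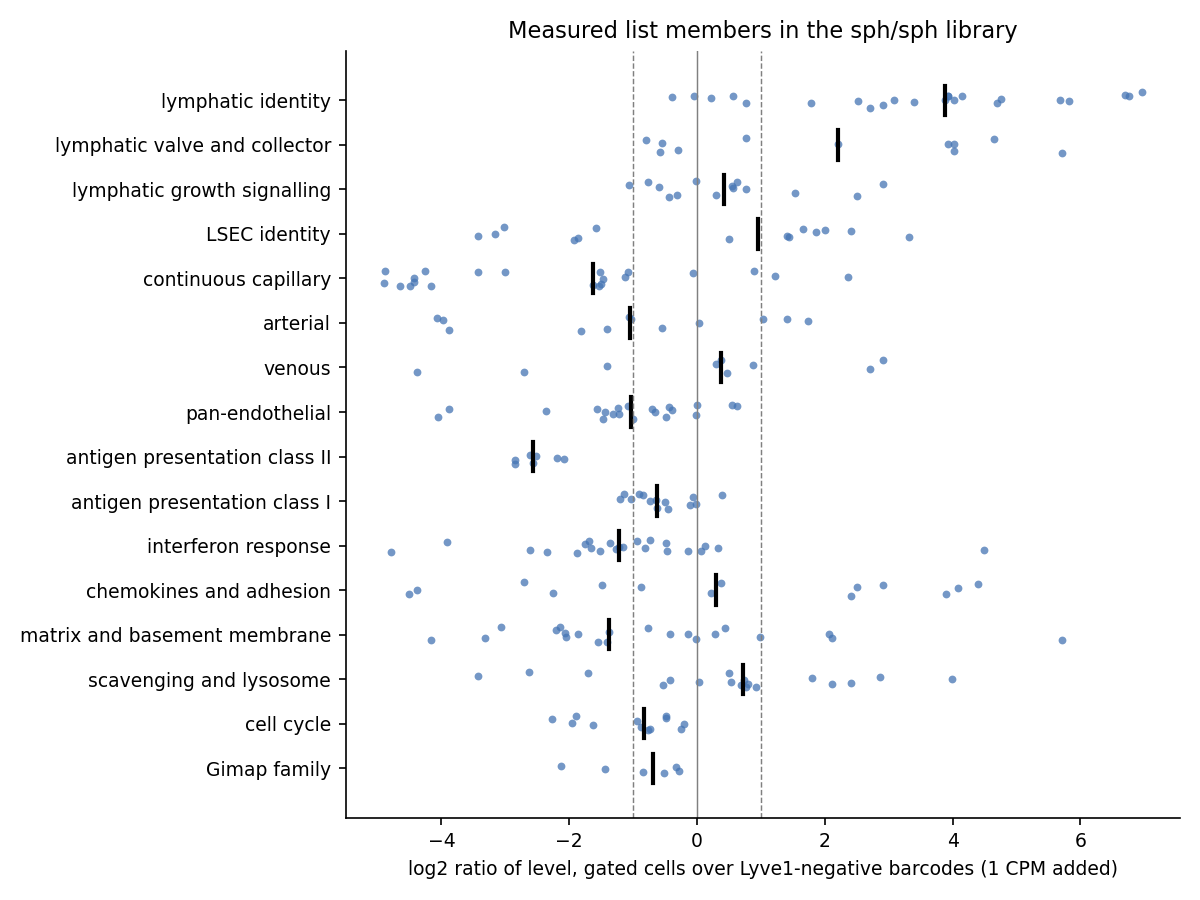
Log2 ratio of level in gated cells over Lyve1-negative barcodes (x axis, 1 CPM added) for the measured members of 16 gene lists; each point is a gene, the black bar the list median, and dashed lines mark 2-fold. Lymphatic identity sits highest at a median of 3.87 and antigen presentation class II lowest at -2.57.

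Class II presentation genes were lower in gated cells, while most class I genes lay within 2-fold and interferon response genes were lower or within 2-fold but for 1. All 7 measured class II presentation genes were at least 2-fold lower (median -2.57). The invariant chain gene Cd74 was at 557 CPM in gated cells and 3192 CPM in Lyve1-negative barcodes, and Ciita, the class II transactivator, at 13.8 against 105 CPM. Of 14 class I genes 3 were lower and 0 higher (median -0.63). Of 23 interferon response genes 13 were lower and 1 higher (median -1.22): Ubd, a ubiquitin-like protein induced by interferon-gamma, was at 46.5 against 1309 CPM (-4.79, and -6.47 without sub-cluster 6, described below) and Rsad2, viperin, at -3.92. Ifi27l2a was the exception, at 740 against 31.9 CPM (4.50).

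Chemokines went both ways. Of 14 chemokine and adhesion genes, 6 were higher and 5 lower, with a median of 0.30 that changed sign over the alternatives (-0.54 to 0.42). Cxcl9, a T cell chemokine induced by interferon-gamma, was at 149 CPM in gated cells and 3422 CPM in Lyve1-negative barcodes (-4.51), and Cxcl12 was at -4.38. Most of the gated cells' Cxcl9 came from sub-cluster 6, with 1237 of 1763 UMIs, and without it Cxcl9 was at -6.07 and Cxcl12 at -7.19. Il7, a lymphocyte survival cytokine made by lymphatic endothelium, was at 79.0 against 2.80 CPM (4.39). Ccl7 (4.09) and Ccl2 (2.42), which attract monocytes, and Lcn2, an iron-binding lipocalin (3.90), were the others on the high side with Selp and Ackr3. Ccl7 was in 20.8% of gated cells, and its ratio was 1.66 against depth-matched barcodes.

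Matrix genes other than fibronectin were mostly lower: of 21, 11 were lower and 3 higher (median -1.37). The matricellular Sparc was at 658 CPM in gated cells and 6586 CPM in Lyve1-negative barcodes (-3.32), and the basement membrane collagen Col4a1 was at -2.21. With Fn1, Eln, elastin (2.11), and Loxl2, a lysyl oxidase (2.06), were higher. Of 18 scavenging and lysosome genes 5 were higher and 3 lower (median 0.72), led by the proteases Ctsh (277 against 16.5 CPM, 3.99) and Ctsd (2279 against 313 CPM, 2.86). Of 12 sphingosine and lipid genes 6 were lower and 1 higher (median -1.05). The higher one was Spns2, the exporter by which endothelium secretes sphingosine 1-phosphate (243 against 86.0 CPM, 1.49).

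Cell cycle genes were lower in 4 of 12 and higher in 0 (median -0.82), with Mki67, a proliferation marker, at 17.6 CPM in gated cells and 88.5 CPM in Lyve1-negative barcodes (-2.27). Of 14 hypoxia and glycolysis genes 6 were lower and 1 higher, and of 20 immediate early genes 4 were lower and 0 higher (medians -0.81 and -0.66). The endothelial to mesenchymal list had 2 higher and 1 lower of 8, with a median of 0.12 that changed sign over the alternatives (-0.10 to 0.23). Of 7 cell cycle inhibitors, 1 was higher (Cdkn2b, 1.75) and 1 lower (Cdkn1a, -2.29), and of 3 measured hyaluronan genes Stab2 alone passed 2-fold.

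Imprinted growth genes went both ways. Of 7 measured members, H19 (6.12) passed 2-fold on the high side, while Sgce (-3.14) and Igf2r, the receptor that clears IGF2 (-1.08), were lower; the median was -0.22. Igf2, the neighbour of H19 that is expressed from the other parental copy, reached 18.04 CPM in gated cells and 0.398 CPM in Lyve1-negative barcodes. It was thus 45.4-fold higher (28.3 to 76.8) but below the 20 CPM line, and in 15.5% of gated cells.

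Gimap5, the gene mutated in this mouse, was at 86.5 CPM in gated cells (1022 UMIs) and 109 CPM in Lyve1-negative barcodes (5201 UMIs), a log2 ratio of -0.33. The GIMAP proteins are GTPases of lymphocytes and endothelium whose genes lie side by side. Of 6 measured GIMAP genes, 2 were at least 2-fold lower in gated cells: Gimap4 (95.01 against 419 CPM, -2.13) and Gimap8 (29.6 against 82.3 CPM, -1.45). The others ran from -0.85 to -0.29, with 0 at least 2-fold higher.

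Transcripts of other cell types were few, with some genes that these cells share. The leukocyte gene Ptprc had 2 UMIs in all gated cells and 21 in Lyve1-negative barcodes. Of 15 macrophage or Kupffer genes Lyz2 was the measured one (1.56), in 1.001% of gated cells. Sub-cluster 3 held 339 of its 363 UMIs, in 0.885% of its cells, and the ratio was negative under 3 alternatives, at -2.14 with the thinned gate, -0.71 against depth-matched barcodes and -1.81 without globin-rich cells. C1qa, Csf1r and Adgre1 were below 1 CPM in gated cells, and Clec4f, Marco and Cd163 at 0 UMIs. Of 11 measured hepatocyte genes 9 were lower and 0 higher, and the 14 listed sum to 106 CPM in gated cells and 700.2 CPM in Lyve1-negative barcodes. Alb, albumin, was at 15.3 against 237 CPM. None of the listed T or NK, B or plasma cell, neutrophil, cholangiocyte or platelet genes other than Mmrn1 reached 20 CPM in either group. The measured members of the pericyte, dendritic cell and blood progenitor lists were all lower in gated cells: Mcam (-4.03), Zbtb46 (-1.47), Mecom (-3.93), Kit (-2.72) and Cd34 (-1.54), which endothelium also expresses.

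Among stellate and fibroblast genes, Dcn, the proteoglycan decorin, was at 1055 CPM in gated cells and 37.7 CPM in Lyve1-negative barcodes (4.77, and 2.77 against depth-matched barcodes), in 61.1% and 1.73% of barcodes. Gsn, gelsolin (2.21), and Reln were also higher. Of the 4 measured genes of this list, 3 were thus at least 2-fold higher in gated cells and 1 lower, Ecm1 (-1.72). The collagen genes that define fibroblasts were not there: Col1a1, Col3a1 and Lum were at 0 UMIs in gated cells and Col1a2 at 0.0847 CPM. Likewise Gpm6a, listed for mesothelium, was at 201 against 4.35 CPM (5.24), with Msln and Lrrn4 at 0 UMIs in gated cells. The other measured gene of that list, Wt1, was lower, at 8.38 against 171 CPM (-4.19).

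Haemoglobin transcripts came from a handful of cells. The gated cells held 25034 globin UMIs, and the 10 richest cells held 97.3% of them, the richest alone 5216. Summed erythroid genes were at 2135 CPM in gated cells and 2526 CPM in Lyve1-negative barcodes. Without the 17 gated cells that held at least 10 globin UMIs, 663 genes were at least 2-fold higher and 989 lower, and Prox1 was in 95.01% of cells.

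The cells differed among themselves. Clustering the 1099 gated cells, with the gate genes left out, gave 6 sub-clusters of 252, 230, 226, 158, 148 and 85 cells. Since the leading genes formed the clusters, their values are descriptions. Prox1 varied little, from 345 CPM in sub-cluster 6 to 534 CPM in sub-cluster 4. Fgl2 ran from 950.4 to 1678 CPM and Flt4 from 608 to 1024 CPM. Gimap5 lay between 70.4 and 106 CPM in all 6. Sub-clusters 1 to 5 had medians of 8954 to 10658 UMIs and 2.21% to 5.06% of cells among the highest doublet scores.

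Sub-cluster 4 was the Ccl21a-rich one. Its Ccl21a level was 5175 CPM, in 94.3% of its 158 cells, against 192 CPM in the other gated cells. Pdpn (84.5 CPM), Nrp2 (1092 CPM) and Pglyrp1, a peptidoglycan recognition protein (262 CPM), were highest in it among the sub-clusters. Mki67 was at 82.1 CPM against 6.82 CPM in the other gated cells, in 13.9% of its cells. Sub-cluster 5, of 148 cells, was next for Ccl21a (1084 CPM) and Pdpn (71.8 CPM). It was led by immediate early and flow-response genes, with Fos, an AP-1 factor, at 845 CPM and Klf2, a shear stress factor, at 1439 CPM. Fos and the heat shock gene Hspa1a (220 CPM) also rise during tissue dissociation, and the part of that in sub-cluster 5 was not tested.

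The cells with and without Ccl21a differed in other genes. Gated cells with at least 10 Ccl21a UMIs numbered 158, of which 120 were in sub-cluster 4 and 28 in sub-cluster 5. They held 96.2% of all Ccl21a UMIs in gated cells. H19 was at 569.9 CPM in them, and at 1487 CPM in the 819 gated cells without Ccl21a. Hamp, the iron hormone hepcidin, was at 17.7 CPM and 487 CPM, and Dcn at 357 CPM and 1226 CPM. Pdpn ran the other way, at 87.7 CPM and 14.9 CPM. Prox1 was at 578 CPM and 439 CPM, so cells of both kinds carried it. Their median depths were close, 9904 and 10775 UMIs.

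Sub-cluster 2 had the highest H19, at 2904 CPM in 97.0% of cells, against 43.1 CPM in sub-cluster 5. The imprinted genes Mest (373 CPM), Cdkn1c (171 CPM) and Igf2 (35.3 CPM) were highest there too among the sub-clusters. Cdkn1c was in 34.8% of cells there, below the 40.0% of sub-cluster 6. Sub-cluster 2 also led the sub-clusters in Angpt2 (832 CPM) and Stab1 (2025 CPM). Nmb, a bombesin-like neuropeptide, was at 438 CPM against 103 CPM in the other gated cells. Globin genes and Dlk1 headed its list too, but from few cells: Hbb-bs was in 7.39% and Dlk1 in 0.870% of cells. Sub-cluster 3 was led by Igfbp5, an IGF-binding protein, at 3027 CPM against 241 CPM in the other gated cells. Hamp (781 CPM) and Nts (8989 CPM) were highest there among the sub-clusters. In sub-cluster 1 Dcn was at 2735 CPM, in 95.6% of cells, with the adhesion molecule Vcam1 at 724 CPM and Bmp4, a BMP ligand, at 255 CPM. Mgp, its first gene by ratio, was in 5.56% of its cells.

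**Figure D5:**
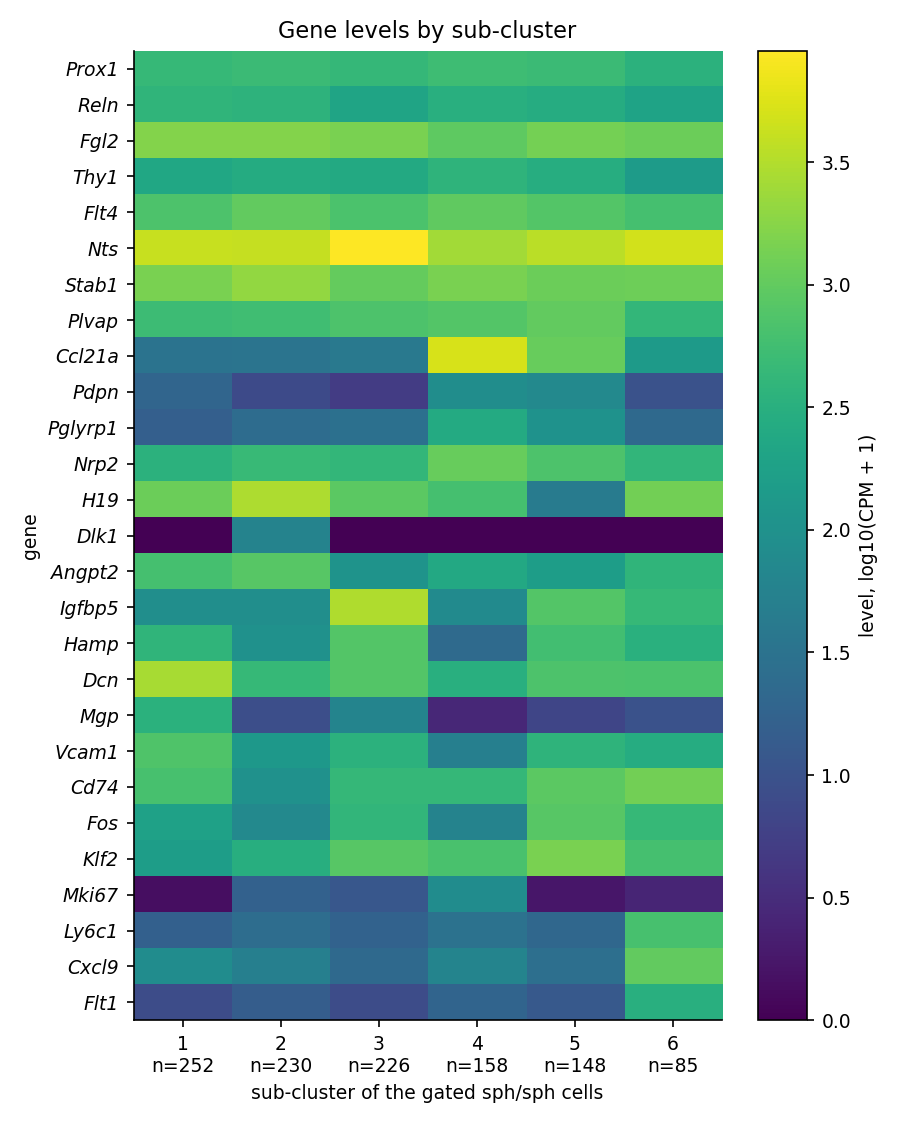
Level of 27 genes (rows) in the 6 sub-clusters of gated sph/sph cells (columns, with cell numbers), as log10 of CPM plus 1. Prox1, Fgl2 and Flt4 are even across columns, Ccl21a and Pdpn are brightest in sub-clusters 4 and 5, and Ly6c1, Cxcl9 and Flt1 in sub-cluster 6.

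Sub-cluster 6 carried capillary transcripts beside lymphatic ones. Ly6c1 was at 642 CPM, against 20.5 CPM in the other gated cells, Ly6a at 951 CPM, Cxcl9 at 991 CPM and Flt1 at 311 CPM. Prox1 was at 345 CPM and Mmrn1 at 797 CPM. Its 85 cells had a median of 14411 UMIs, and 60 of them (70.6%) were among the highest doublet scores, at a median score of 0.349. Whether they were mixtures was not tested. Without them, 677 genes were at least 2-fold higher and 1025 lower, and 94.97% of cells had Prox1.

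Cells on both sides of the Lyve1 edge had Prox1 at like levels. With Mmrn1 at 2 or more, the 44 cells just inside, with 5 or 6 Lyve1 UMIs, had Prox1 at 403 CPM. The 43 just outside, with 3 or 4 Lyve1 UMIs, had it at 424 CPM, and 49 with no Lyve1 UMI at 510.3 CPM. H19 was not level, at 601 CPM in the 44 cells, 221 CPM in the 43 and 154 CPM in the 49. In the same order Reln was at 163, 181 and 84.6 CPM, and Stab2 at 64.2, 34.3 and 19.9 CPM. On the Mmrn1 side the edge was sharper. With Lyve1 at 5 or more, Prox1 was at 384 CPM in 102 cells with 2 or 3 Mmrn1 UMIs, at 267 CPM in 29 cells with 1, and at 61.4 CPM in 92 cells with 0. The 92 cells had Stab2 at 180 CPM.

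Clustering all filtered sph/sph barcodes without Lyve1 and Mmrn1 gave 13 clusters, and 1095 of the 1099 gated cells fell into 1 of them. That cluster had 1346 cells. The 251 outside the gate were shallower, at a median of 7257 UMIs, and 27.5% of them had no Lyve1 UMI and 22.7% no Mmrn1 UMI. Prox1 was at 385 CPM in them, in 79.7% of cells, and Reln at 95.6 CPM. H19 was at 207 CPM in these 251 cells, while the gated cells had 1269.98 CPM.

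The 8 gated cells of the sph/+ library give a small view of cells that met the same rule in the other mouse. They held 39741 UMIs in all, with a median of 5257 per cell. Prox1 had 25 UMIs in 7 of the 8 cells, 629 CPM (407 to 929), and Reln 37 UMIs in 7 cells. Fgl2 had 147 UMIs in all 8, 3699 CPM. All 8 thus had lymphatic transcripts beyond the gate genes. Ccl21a had 289 UMIs in 6 cells, from 0 to 112 per cell, which is 7272 CPM (6458 to 8161), and Pdpn had 14 UMIs in 6 cells, 352 CPM (193 to 591).

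Some genes abundant in the gated sph/sph cells had no UMI in the sph/+ cells: Nts, Dcn, Hamp, Cd74, Fn1, Cd34 and Angpt2. The limit for a count of 0 in these 8 cells was set at 3 UMIs, which is 75.5 CPM. The 95% exact upper bound is higher, at 92.8 CPM, and by it the least folds below would be smaller. Nts was at 4894 CPM in the sph/sph cells, at least 64.8-fold higher, Dcn at 1055 CPM, at least 13.97-fold higher, and Fn1 at 846 CPM, at least 11.2-fold higher. Nts, Dcn and Hamp differed with Ccl21a within the sph/sph cells, and 6 of the 8 sph/+ cells carried Ccl21a. The sph/sph cells with at least 10 Ccl21a UMIs had Nts at 3110 CPM and Dcn at 357 CPM, and Hamp at 17.7 CPM, below what 8 cells could show. H19 had 18 UMIs in 4 of the 8 sph/+ cells, 453 CPM (268 to 716). Gimap5 had 0 UMIs in the sph/+ cells and 86.5 CPM in the sph/sph cells, at least 1.15-fold higher by that limit, but the 95% exact upper bound of the 0 count, 92.8 CPM, lies above 86.5 CPM. Stab2 had 32 UMIs in 5 of the sph/+ cells and Clec4g 57 UMIs in 3 of them, with up to 31 in 1 cell. LSECs carry both genes, and the Lyve1-rich barcodes of that library held both at high summed levels. The part of LSECs in these 8 cells was not tested.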

How the data were processed

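Single-cell RNA from sorted liver endothelium of 1 sph/sph and 1 sph/+ mouse was sequenced with the 10x Genomics 3' kit. The deposited values are raw counts of UMIs per gene and barcode over 31053 genes. Per the submitters' processing notes, the authors used Cell Ranger 3.0 with mm10; the matrix header names software 3.1.0. Which annotation they used is not given in the sources used here.

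Filters and gate are in the report. Counts were summed over cells and scaled to CPM. Named genes were the top 14 and bottom 10 by log2 ratio, a set of fixed genes and up to 4 members per list. A gene in several lists counts in each. Unnamed, mitochondrial, ribosomal, globin and sex-linked genes were left out of the first part. The members and lists were chosen with earlier results of these data known. Where a symbol occurs more than once (35 symbols), the first entry was used.

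Scrublet (scanpy 1.11.5) at an expected rate of 10.5% marked 0 barcodes by its automatic threshold, so the highest scores were marked (10.98%). No doublet was removed from the main values. Clustering used 30 principal components for all barcodes, 20 for gated cells, 15 neighbours and leidenalg 0.10.2, without the gate, mitochondrial, ribosomal, Gimap, globin, immunoglobulin and sex-linked genes. Intervals are exact, at 95%. In counts simulated for the comparison of gated cells with Lyve1-negative barcodes, 50 of 50 genes changed 3-fold passed the 2-fold line, and 0 of 6504 unchanged genes did. The simulated counts were drawn from summed totals with no variation between cells. They thus cover counting error only, and not ratios moved by a few cells, as for Lyz2. Promoter sequences are from RefSeq (GRCm38.p6) and gene positions from GENCODE.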

Additional observations from a re-analysis of the deposited data

How the results depend on the processing

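The gate share, the Prox1 share and both 2-fold counts were recomputed under 15 alternatives, as far as each applied; 33 of the values stayed within 1.5 times the main count or within the main share's 95% interval and 10 did not. The share in the gate was 9.03% at 3 Lyve1 and 1 Mmrn1 UMIs, 6.93% at 10 and 4 UMIs, 7.38% after thinning, 9.12% with mitochondrial UMIs at most 10%, and 7.74% without sub-cluster 6. The share of gated cells with Prox1 was 93.5% at 3 Lyve1 and 1 Mmrn1 UMIs and 56.8% after thinning to 2000 UMIs. With a floor of 50 CPM, 446 genes were higher and 609 lower, and with no floor 1321 were higher and 1882 lower, since more or fewer genes were counted. Against 775 Lyve1-negative barcodes matched in depth (median 8578 UMIs, against 10520 in gated cells), 527 genes were higher and 896 lower, and Prox1 was at 4.31, Ccl21a at 6.19 and Plvap at 1.22 on the log2 scale. Leaving out the highest doublet scores gave 679 and 1039 genes. Leaving out sub-cluster 6 or cells with at least 10 globin UMIs was chosen after seeing the data.

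Signs changed for the medians of 9 lists and for 6 genes named or listed. The sinusoidal, venous, chemokine and endothelial to mesenchymal medians are given above with their ranges. The mesothelial median ran from -1.27 with no floor to 0.62, and the hyaluronan median from -0.01 against depth-matched barcodes to 0.64. The erythroid median ran from -7.47 without globin-rich cells to 0.13, with Hbb-bt from -7.14 to 0.66, Hba-a1 from -7.54 to 0.16 and Hba-a2 from -7.40 to 0.11. Against depth-matched barcodes Hyal2 was at -0.07 and Cdkn2a at -0.31. The stellate or fibroblast median was -0.11 with no floor. The macrophage median was -0.22 with no floor and -0.71 against depth-matched barcodes, and Lyz2 was at -2.14 with the thinned gate, -0.71 against depth-matched barcodes and -1.81 without globin-rich cells; the cause was not tested. No paired analysis was possible because each genotype has 1 sample. Depth limits genes below 20 CPM and the 8 sph/+ cells.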
